A study of Mus musculus with 37 samples.

Results

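The nuclear genes of oxidative phosphorylation were taken as the symbols of the count table that name subunits of respiratory complexes I to V and had a summed count of at least 1000 over all libraries. Symbols beginning with Nduf and a subunit letter and number, Sdha to Sdhd, Uqcr, Cox4 to Cox8 with a subunit letter, or Atp5 were accepted, and pseudogene (-ps) and assembly factor (af) symbols were not. This gave 81 of 25239 gene rows, with 36 genes of complex I, 4 of complex II, 8 of complex III, 16 of complex IV and 17 of complex V. All 81 passed the filter on low counts, which left 15046 genes to test. Expression was measured by bulk RNA sequencing of mouse embryonic hearts at stage E10.5. Fathers were Stra8-iCre; Nipbl Flox/+, and their sperm carried either the Flox allele, which is wild type, or the FIN allele, which is null. Mothers were Isl1 Cre/+, with a Cre recombinase in place of 1 working Isl1 allele. The 4 groups were Nipbl +/+; Isl1 +/+ (called wild_type, n = 10), Isl1 +/- with no Nipbl null allele in its label (Isl1_het, n = 9), Nipbl +/- with both Isl1 alleles working (Nipbl_het, n = 9) and Nipbl +/-; Isl1 +/- (double_het, n = 9). Isl1_het and double_het embryos thus also carry the Cre gene, expressed from the Isl1 locus in their Isl1-expressing cells, and the inheritance of Stra8-iCre is not given. Whether that Cre acts on the paternal Nipbl allele in those cells is not given in the sources used here either, so loss of Isl1 and any action of Cre cannot be told apart in comparisons with these 2 groups. Just inside the summed count minimum were Cox8b with 7620 counts, Ndufa4l2 with 8628 and Cox6b2 with 14810. Just outside were Ndufb4c with 509 and Cox7b2 with 72, and Ndufs5, a complex I subunit, was listed at 0 in every library.

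Oxidative phosphorylation makes ATP in mitochondria. Complexes I (NADH dehydrogenase) and II (succinate dehydrogenase) feed electrons to complex III (cytochrome bc1) and on to complex IV (cytochrome c oxidase), which reduces oxygen, and complex V (ATP synthase) uses the proton gradient that complexes I, III and IV build. Most subunits are encoded in the nucleus, a few are encoded in mitochondrial DNA, and complex II is wholly nuclear. Several complex IV subunits have a general form and a form typical of heart and skeletal muscle, and the embryonic heart turns from glycolysis toward oxidative metabolism as it matures. The protein made from Nipbl loads cohesin rings onto chromosomes, and that of Isl1 is a transcription factor active in the progenitors of the heart.

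Promoters of these genes are known for binding sites of NRF1, of ETS family factors such as GABP, and of YY1, so stretches that hold one of those motifs are shown for 6 members. A RefSeq table (GRCm38.p6) gave a promoter window, from 250 bases before to 50 bases after the gene start, for 66 of the 81 members and for 27025 genes in all. The 10-letter palindromic core of NRF1, shown by the capitals of the first lines, and the letters CCGGAAGT (ETS) and AAGATGGC (YY1) were searched on both strands. In each line the motif stands in capitals, and for the ETS pair it reads on the opposite strand.
Cox6a1 (NRF1, chr5:115349101-115349130, minus strand): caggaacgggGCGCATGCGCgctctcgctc
Atp5g2 (NRF1, chr15:102671070-102671099, minus strand): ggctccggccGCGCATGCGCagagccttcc
Cox8a (ETS, chr19:7217605-7217632, minus strand): tttccgaaatACTTCCGGctcgggcgtc
Ndufs3 (ETS, chr2:90904704-90904731, minus strand): gcacatttccACTTCCGGtccgtgccct
Ndufs6 (YY1, chr13:73328433-73328459, minus strand): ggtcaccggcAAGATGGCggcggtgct
Ndufa9 (YY1, chr6:126849098-126849125, minus strand): attgtgggagAAGATGGCggccgccgtc
The NRF1 letters were in 5 of the 66 members (7.58%) against 1.07% of all genes with a window. The ETS letters were in 5 members (7.58%) against 4.31%, and the YY1 letters in 10 members (15.2%) against 3.19%. Both YY1 matches shown start after the gene start, at 33 bases in Ndufs6 and 29 in Ndufa9. The YY1 letters contain ATG, and overlap of matches with translation starts was not checked. In all, 20 members (30.3%) held at least 1 of the 3 motifs, against 8.22% of all genes. None of the 3 motifs contains another. A match is a description of the sequence and not a binding site.

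A second pair sets the promoter of a gene that every respiring cell uses beside that of a muscle isoform. With 1 gene of each kind, it does not show how the kinds differ. Sdha encodes the catalytic flavoprotein of complex II, and Cox8b encodes the heart and muscle form of the smallest subunit of complex IV. They are also the 2 members that came nearest to the threshold in the genotype tests. The 250 bases before each gene start are printed with each CG dinucleotide in capitals.
Sdha (chr13:74350241-74350490, minus strand): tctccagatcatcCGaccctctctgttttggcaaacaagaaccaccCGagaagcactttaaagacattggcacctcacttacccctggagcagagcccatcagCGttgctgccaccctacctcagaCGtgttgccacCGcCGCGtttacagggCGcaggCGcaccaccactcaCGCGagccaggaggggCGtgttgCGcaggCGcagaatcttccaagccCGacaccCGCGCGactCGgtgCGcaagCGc
Cox8b (chr7:140900447-140900696, minus strand): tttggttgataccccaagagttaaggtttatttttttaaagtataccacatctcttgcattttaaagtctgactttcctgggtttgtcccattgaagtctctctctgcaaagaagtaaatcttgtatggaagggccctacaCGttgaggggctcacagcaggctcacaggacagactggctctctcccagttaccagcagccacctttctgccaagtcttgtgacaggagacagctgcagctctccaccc
The Sdha window had a GC content of 61.6% and 21 CG dinucleotides, and the Cox8b window had 47.2% and 1. Medians were 56% and 14 over the members' windows, and 52.4% and 6 over all genes' windows. Neither of these windows held any of the 3 motifs.

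Total counts ranged from 23.4 to 51.0 M (mega-counts) per library, and the smallest count of a member in a library was 43, for Ndufa4l2. Each library carries a set number in its label. Sets 2, 5 and 6 held all 4 genotypes, set 1 held 3 wild_type and 3 Isl1_het libraries, and set 7 held only double_het replicate 2. Because a set term was fitted, the set 7 library was fitted exactly, and each fitted double_het difference rests on 8 libraries. Both targeted genes were read as checks of the labels. The Nipbl level was 60.0 ± 10.1 CPM (counts scaled to library size by TMM, SD, n = 10) in wild_type, 61.5 ± 5.88 (SD, n = 9) in Isl1_het, 39.3 ± 13.8 (SD, n = 9) in Nipbl_het and 38.1 ± 7.41 (SD, n = 9) in double_het. The library labelled Nipbl_het replicate 2 went against its label at 72.4 CPM, and without it the Nipbl_het level was 35.2 ± 6.34 CPM (SD, n = 8). The calls and medians that it moves most are given with and without it. For Isl1 no test between the Isl1 labels passed. Its level was 7.37 ± 2.24 CPM (SD, n = 10) in wild_type, 6.28 ± 1.76 in Isl1_het, 13.0 ± 2.82 in Nipbl_het and 9.50 ± 3.51 in double_het (SD, n = 9 each), and double_het lay above wild_type in its mean. The fitted difference was -0.20 (adjusted p = 0.877) in Isl1_het against wild_type, -0.47 (unadjusted p = 0.022, adjusted p = 0.518) in double_het against Nipbl_het and -0.33 (unadjusted p = 0.020, adjusted p = 0.321) for the averaged Isl1 effect (edgeR), all 3 in the direction of the labels. In Nipbl_het against wild_type Isl1 rose by 0.79 (log2, SE 0.19, adjusted p = 0.0252, edgeR), and by 0.81 (adjusted p = 0.0190, edgeR) without the library labelled Nipbl_het replicate 2. Which part of Isl1 the Cre allele still transcribes is not given in the sources used here. Red cell markers (9 genes) summed to 489 to 106447 CPM, lowest in the library labelled Nipbl_het replicate 2 and highest in wild_type replicate 7. Among these genes, the adult alpha globins Hba-a1 and Hba-a2 were near 0 counts throughout. How reads that match more than 1 gene were counted is not given in the sources used here, so these counts do not show absence of expression. Liver markers (5 genes) summed to 371 CPM in Nipbl_het replicate 9 and to at most 20.9 CPM in the other genotypes. Nothing states that the libraries of a genotype came from separate litters, so p-values measure the spread between these samples.

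The question for each genotype comparison was whether loss of 1 allele of Nipbl, of Isl1 or of both changed the transcripts of the respiratory complexes. None of the 81 genes passed the threshold of an adjusted p under 0.05 in any of 8 comparisons by edgeR's quasi-likelihood test with Benjamini-Hochberg adjustment over 15046 genes. The share of all genes called was 0% in Isl1_het against wild_type, 1.71% in Nipbl_het against wild_type and 2.6% in double_het against wild_type. It was 0.957% in double_het against Isl1_het, 0% in double_het against Nipbl_het and 0% for the interaction, the departure of double_het from the sum of the single effects. For the averaged Nipbl effect (the mean of its effects with and without Isl1 loss) it was 4.02%, and for the averaged Isl1 effect, built likewise, 0.173%. At an unadjusted p under 0.05 the members higher and lower numbered 0 and 0 in Isl1_het, 2 and 1 in Nipbl_het and 0 and 4 in double_het, against 5.89%, 15.1% and 11.6% of all genes. In double_het they numbered 0 and 0 against Isl1_het and 1 and 0 against Nipbl_het, with 7.49% and 9.01% of all genes. For the interaction they numbered 0 and 0 (2.73% of all genes), for the averaged Nipbl effect 3 and 2 (14.9%) and for the averaged Isl1 effect 1 and 1 (12.2%). DESeq2 with the same design called 1 member, Sdha, in double_het against wild_type, 2 members, Cox8b and Sdha, for the averaged Nipbl effect, and 0 in the other 6 comparisons. It called 3.5% of all genes in double_het against wild_type and 5.46% for the averaged Nipbl effect.

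Most point estimates lay a little below 0 although none passed. The median log2 difference of the 81 members from wild_type was -0.15 in Isl1_het, -0.07 in Nipbl_het and -0.13 in double_het, while the median of all genes tested was -0.0034, 0.0080 and -0.0019. Estimates below 0 numbered 79 of 81 members (97.5%) in Isl1_het, 64 (79.0%) in Nipbl_het and 74 (91.4%) in double_het, against 51.2%, 47.8% and 50.5% of all genes. These 3 comparisons share the wild_type libraries, and the members vary together between libraries of 1 genotype, as described further on, so the members are not independent of each other. Between double_het and Isl1_het the median was 0.02 with 32 of 81 below 0 (39.5%), and between double_het and Nipbl_het it was -0.08 with 78 of 81 below 0 (96.3%). The all-gene shares below 0 there were 48.9% and 53.8%. For the interaction the median was 0.07, with 11 of 81 below 0 (13.6%) against 50.5% of all genes. With each library left out that median ran from -0.021 to 0.17. The averaged Nipbl effect had a median of -0.03 and the averaged Isl1 effect one of -0.12, with 55 and 80 of 81 members below 0 against 48.3% and 55% of all genes. With each library left out, the averaged Nipbl median ran from -0.088 to 0.061 and the averaged Isl1 median from -0.18 to -0.054. The medians against wild_type and between the other groups also rested on few libraries. Leaving out set 5 turned the double_het against wild_type median from -0.13 to 0.09 and the Nipbl_het median from -0.07 to 0.21. Dropping wild_type replicate 4 alone moved the Isl1_het median from -0.15 to -0.050, the Nipbl_het median to 0.065 and the double_het median to 0.00084. Without the library labelled Nipbl_het replicate 2 the Nipbl_het median was -0.00019, and dropping Nipbl_het replicate 8 turned the double_het against Nipbl_het median from -0.08 to 0.018. Summed markers of several cell types also had different medians between the genotypes. The summed cardiomyocyte markers (8 of 8 measured) had a median of 28511 CPM in wild_type (range 22844 to 33331), 26044 in Isl1_het (22962 to 32810), 24894 in Nipbl_het (22273 to 27385) and 24770 in double_het (21997 to 29495). The 6 ventricular markers had medians of 14989, 12615, 11954 and 12805 CPM in the same order. The 5 epicardial markers had medians of 347, 427, 423 and 539 CPM, and their range in double_het (426 to 568.1) lay above that in wild_type (209 to 397). The 6 endocardial markers had medians of 593, 678, 613 and 724 CPM in that order, and the 9 red cell markers 10594, 14592, 6760 and 15356 CPM, with ranges that overlapped between all 4 genotypes for both lists. The medians of 4 cushion mesenchyme markers were 364, 401, 391 and 381 CPM, and those of 4 neural markers 28.9, 26.7, 40.6 and 35.8 CPM. The part of cell composition in the members' estimates was not tested. The median 95% half-width of a member's log2 difference was 0.30 in Isl1_het, 0.32 in Nipbl_het and 0.33 in double_het, and the whole interval lay within 0.5 of 0 for 51, 63 and 47 of the 81 members. In bulk tissue, fewer cells of a type and less RNA per cell cannot be told apart.

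**Figure D1:**
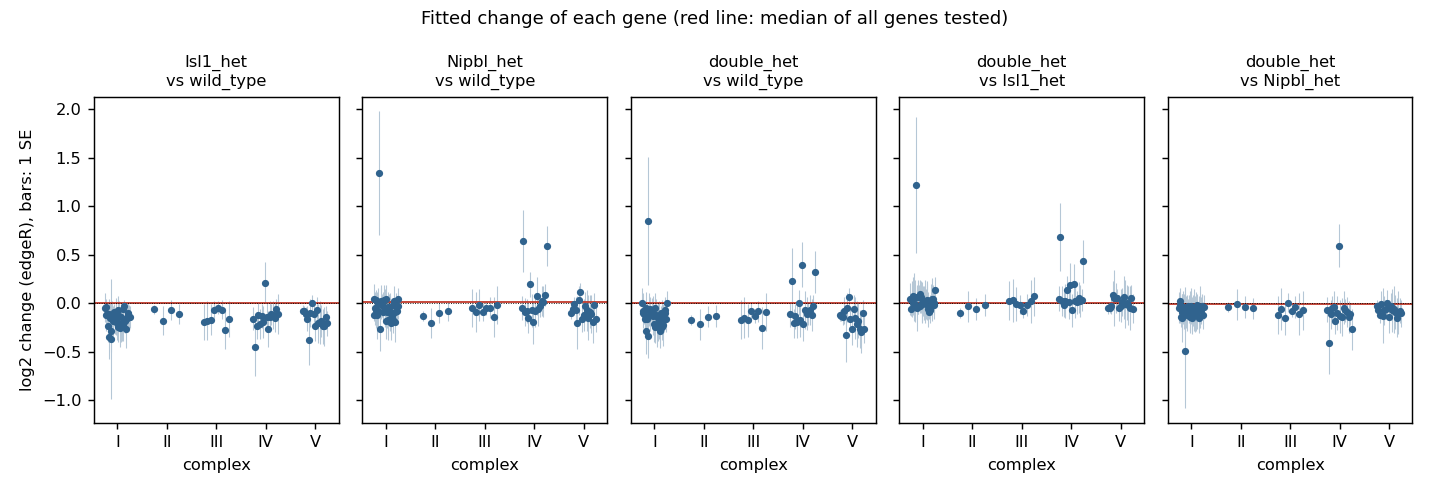
Fitted log2 difference of each of the 81 genes in 5 genotype comparisons, by respiratory complex, with bars of 1 standard error and a red line at the median of all genes tested. Most points lie near or a little below the red line, and the points that stand above the rest are Ndufa4l2 in complex I, at up to 1.34, and Cox4i2, Cox8b and Cox6b2 in complex IV, at up to 0.68.

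Each of the 5 complexes had 0 genes past the threshold. In double_het against wild_type the median log2 difference was -0.13 for complex I (36 genes), -0.15 for complex II (4 genes), -0.14 for complex III (8 genes), -0.11 for complex IV (16 genes) and -0.15 for complex V (17 genes). For Isl1_het the medians ran from -0.17 in complex III to -0.09 in complex II, and for Nipbl_het from -0.12 in complex II to -0.04 in complex IV. Differences between complexes were not tested.

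In complex I the large core subunit Ndufs1, which carries iron-sulfur clusters, had the smallest p among the estimates below 0. It was lower by 0.15 (SE 0.07) on the log2 scale in double_het against wild_type, at an adjusted p of 0.349 (edgeR). Its level was 271 ± 36.04 CPM (SD, n = 10) in wild_type and 269 ± 29.7 (SD, n = 9) in double_het, so the fitted difference appears only once set is in the model. Without the set term Ndufs1 in Nipbl_het stood at 0.05 in place of -0.13. Ndufa10, an accessory subunit, was at 204 ± 22.7 CPM (SD, n = 10) in wild_type and 181 ± 18.8 (SD, n = 9) in Nipbl_het, with an adjusted p of 0.410 (edgeR). In Isl1_het the accessory subunit Ndufb5 stood at 168 ± 20.6 CPM (SD, n = 9) against 203 ± 57.0 (SD, n = 10) in wild_type, at an adjusted p of 0.848 (edgeR). Its fitted log2 difference was -0.25, and -0.11 without wild_type replicate 4. Dropping that same library moved the Ndufa10 difference in Nipbl_het from -0.12 to -0.074.

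Complex II held the member nearest to the threshold in double_het against wild_type, and for the averaged Nipbl effect it tied with Cox8b of complex IV. Sdha had a lowest, median and highest level of 489, 569 and 633 CPM in wild_type and 452, 553 and 592 in Isl1_het. In Nipbl_het the 3 values were 472, 566 and 593 CPM, and in double_het 493.1, 530 and 544. All 9 double_het libraries lay below the wild_type mean, and the range of double_het lay inside that of wild_type. The fitted difference of double_het from wild_type was -0.17 (SE 0.05, unadjusted p = 0.0021, adjusted p = 0.0727, edgeR), which did not pass. In sets 2, 5 and 6 taken alone the differences were -0.13, -0.21 and -0.11. Dropping the library labelled Nipbl_het replicate 2 moved the estimate to -0.18, which passed at an adjusted p of 0.0263 (edgeR), and dropping set 5 gave an adjusted p of 0.779. Over the 49 settings run for that comparison the estimate ran from -0.20 to -0.10. Sdha passed in 8 of the 49, with an adjusted p from 0.0079 with DESeq2 to 0.779. It also passed when wild_type replicate 1, wild_type replicate 6 or double_het replicate 8 was dropped. For the averaged Nipbl effect Sdha was at -0.12 (SE 0.04, adjusted p = 0.0677, edgeR). Without the library labelled Nipbl_het replicate 2 that estimate was -0.13, which passed at an adjusted p of 0.0321 (edgeR). It passed in 6 of 49 settings, among them those without wild_type replicate 6 or double_het replicate 8, and its adjusted p ran from 0.0071 with 2 surrogate variables to 0.437 without set 2. Over the 49 settings that estimate ran from -0.15 to -0.051.

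The other 3 subunits of complex II did not come near the threshold. Sdhb, the iron-sulfur subunit, was at 374 ± 86.6 CPM (SD, n = 10) in wild_type and 295 ± 67.5 (SD, n = 9) in double_het. The membrane anchors Sdhc and Sdhd were at 289 ± 43.6 and 341 ± 48.2 CPM (SD, n = 10) in wild_type, and at 243 ± 39.4 and 286 ± 41.2 (SD, n = 9) in double_het. Sdha varied least of the 4 between libraries, and its estimate therefore had the smallest error.

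Complex IV contains the isoform pairs in which a muscle, low-oxygen or testis form can replace the general one. Cox8b was at 2.97, 5.14 and 9.42 CPM (lowest, median and highest) in wild_type and at 3.50, 4.43 and 5.23 in Isl1_het. In Nipbl_het it was at 3.94, 6.88 and 13.3 CPM, and in double_het at 2.96, 5.55 and 15.8. Nipbl_het replicates 8 and 9 and double_het replicate 8 were the 3 libraries above every wild_type value. The fitted difference of Nipbl_het from wild_type was 0.59 (SE 0.21, adjusted p = 0.150, edgeR), and it had the same sign in sets 2, 5 and 6. Of the 9 Nipbl_het libraries, 7 lay above the wild_type mean. The averaged Nipbl effect on Cox8b was 0.51 (SE 0.16, adjusted p = 0.0677, edgeR), and it passed in 7 of 49 settings, among them those without Nipbl_het replicate 1, double_het replicate 1 or wild_type replicate 4. It was 0.50 when the library labelled Nipbl_het replicate 2 was dropped, at an adjusted p of 0.0600, and the adjusted p was 0.505 when set 2 was dropped (edgeR).

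**Figure D2:**
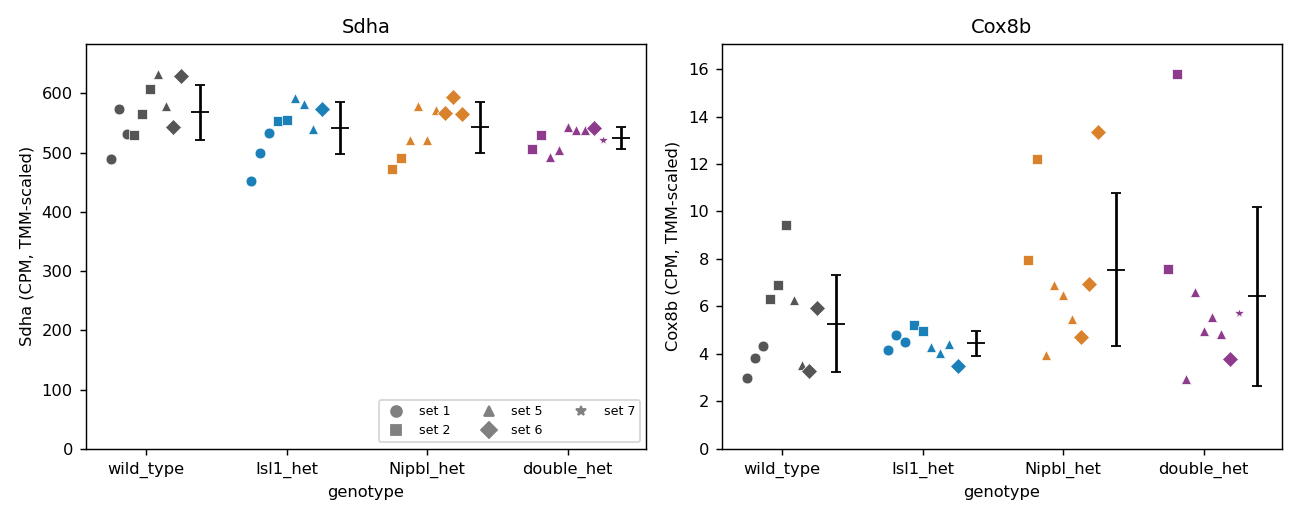
Levels of Sdha and Cox8b (CPM, TMM-scaled) in each of the 37 libraries by genotype, with the symbol giving the set and black bars the mean and SD. Sdha in double_het lies between 493.1 and 544 CPM inside the wild_type range of 489 to 633, and Cox8b reaches 13.3 CPM in Nipbl_het and 15.8 in double_het against at most 9.42 in wild_type.

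Ndufa4l2 and Cox4i2 were high in 3 libraries, and 1 of these carried the Nipbl_het estimates. Ndufa4l2 encodes a relative of Ndufa4 and is a known target of the low-oxygen response. Ndufa4 itself was first placed in complex I, as its symbol has it here, and is now held to belong to complex IV. Cox4i2 is the form of the regulatory subunit Cox4 that low oxygen raises. The library labelled Nipbl_het replicate 2 had 83.8 CPM of Ndufa4l2, double_het replicate 3 had 31.7 and double_het replicate 4 had 16.8, and the other 34 libraries had 1.20 to 11.1 with a median of 2.65. The same 3 libraries led for Cox4i2, with 73.1, 33.8 and 22.3 CPM against 6.08 to 18.3 in the other 34. All 3 belong to set 5, and the next highest for Ndufa4l2, double_het replicate 2, is the single library of set 7.

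The fitted log2 difference of Ndufa4l2 between Nipbl_het and wild_type was 1.34 (SE 0.64, adjusted p = 0.310, edgeR) with the library labelled Nipbl_het replicate 2 and 0.07 (adjusted p = 0.970) without it. For Cox4i2 it was 0.64 (SE 0.32, adjusted p = 0.339, edgeR) with it and 0.12 (adjusted p = 0.888) without it. The averaged Nipbl effect did not pass for either gene, at 1.28 with that library and 0.84 without it for Ndufa4l2, and at 0.66 and 0.45 for Cox4i2 (edgeR). In double_het against wild_type Ndufa4l2 was at 0.85 (SE 0.66, adjusted p = 0.699, edgeR), and at 1.44 when that library was dropped, with an adjusted p of 0.0451. That library is in neither of these groups, but it enters the same fit through the term for set 5 and the shared estimate of the spread. The part of each in the moved estimate was not tested. Dropping double_het replicate 3 gave 0.45 for the same comparison, the lowest with any 1 library left out. Over the 49 settings this estimate ran from 0.30 to 1.71, and it passed in 2 of them. Its adjusted p was 0.9997 without set 5 (edgeR), the set of the libraries highest for this gene. Medians show the rest of each group. Ndufa4l2 had a median of 2.78 CPM in wild_type, 2.57 in Isl1_het, 2.58 in Nipbl_het and 4.39 in double_het, and 6 of 9 double_het libraries lay above every wild_type library. For Cox4i2 the medians were 11.0, 8.37, 13.1 and 12.9 CPM in the same order, and 2 of 9 double_het libraries lay above every wild_type library.

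**Figure D3:**
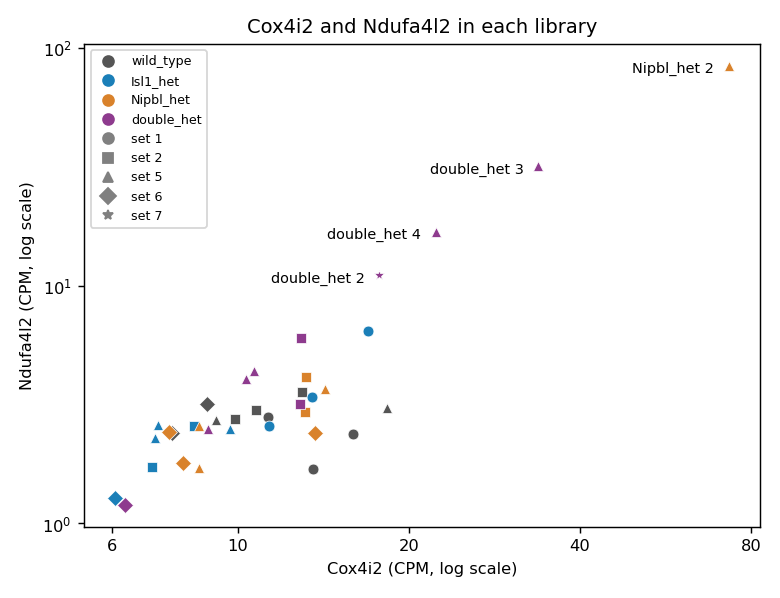
Cox4i2 against Ndufa4l2 in each of the 37 libraries, both in CPM on log axes, coloured by genotype with the symbol giving the set. The library labelled Nipbl_het replicate 2 (73.1 and 83.8 CPM) and double_het replicates 3 and 4 stand apart from the other 34 libraries in both genes.

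Read per kilobase of transcript, the general forms outweighed the special ones in every library. Cox4i1 was at a median of 80.5 times the level of Cox4i2 per kilobase, with 8.02 in the library labelled Nipbl_het replicate 2 and 19.5 in double_het replicate 3. Ndufa4 was at a median of 268 times Ndufa4l2, with 4.23 and 17.5 in those libraries. Among the muscle forms, Cox7a2 stood at a median of 2.74 times Cox7a1 and Cox6a1 at 4.32 times Cox6a2. In wild_type Cox6a2 was at 118 ± 29.6 CPM and Cox7a1 at 70.7 ± 22.4 (SD, n = 10). Cox8a stood at 46.7 times Cox8b. The median Cox8a to Cox8b ratio was 54.2 in wild_type, 56.6 in Isl1_het, 38.1 in Nipbl_het and 41.9 in double_het. The range in Isl1_het (48.9 to 79.3) lay above that in Nipbl_het (26.4 to 46.7), a pair that is not among the 8 comparisons tested. The ranges of all other pairs of genotypes overlapped. In the library labelled Nipbl_het replicate 2 the Cox6a1 to Cox6a2 ratio was 1.75 and the Cox7a2 to Cox7a1 ratio 1.49, the lowest of all 37 libraries for both.

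Cox6b2, a form of the subunit Cox6b known from testis, had the smallest p between the 2 groups with Nipbl loss. It was at 5.54, 7.95 and 13.8 CPM (lowest, median and highest) in Nipbl_het and at 5.27, 12.0 and 26.4 in double_het. In wild_type it was at 6.60, 10.0 and 31.3 CPM and in Isl1_het at 6.04, 13.1 and 20.9, so all 4 ranges overlapped. The double_het minus Nipbl_het difference was 0.59 (SE 0.22, unadjusted p = 0.012, adjusted p = 0.498, edgeR). The highest value of all, 31.3 CPM, was in wild_type replicate 7, which also had the most red cell marker RNA, and the part of that in the Cox6b2 level was not tested. The general form Cox6b1 stood at a median of 31.6 times Cox6b2 per kilobase. Cox5a, a subunit on the matrix side of the enzyme, was at 434 ± 114 CPM (SD, n = 10) in wild_type and 366 ± 54.3 (SD, n = 9) in Isl1_het, at an adjusted p of 0.841 (edgeR), and its log2 difference of -0.24 became -0.082 without wild_type replicate 4.

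Complex III has its core proteins Uqcrc1 and Uqcrc2 beside the catalytic subunits. Uqcrc1 was at 564 ± 64.6 CPM (SD, n = 10) in wild_type, 532 ± 24.0 in Isl1_het, 512 ± 98.4 in Nipbl_het and 504 ± 72.6 in double_het (SD, n = 9 each). Uqcrc2 was at 457 ± 40.7 CPM (SD, n = 10) in wild_type and 411 ± 23.4 (SD, n = 9) in double_het. The small subunit Uqcrq varied more between libraries, from 131 CPM in the library labelled Nipbl_het replicate 2 to 633 in Nipbl_het replicate 8.

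In complex V the catalytic beta subunit Atp5b was the most abundant member. It was at 3673 ± 303 CPM (SD, n = 10) in wild_type, 3463 ± 146 in Isl1_het, 3456 ± 218 in Nipbl_het and 3289 ± 251 in double_het (SD, n = 9 each). The double_het difference was -0.13 (SE 0.06, unadjusted p = 0.034, adjusted p = 0.360, edgeR). Atp5pb, the peripheral stalk subunit b, was at 761 ± 171 CPM (SD, n = 10) in wild_type and 646 ± 49.7 (SD, n = 9) in Isl1_het, with an adjusted p of 0.848 (edgeR). Its log2 difference was -0.21, and -0.098 without wild_type replicate 4. The genes Atp5g1, Atp5g2 and Atp5g3 encode the same mature c-ring subunit. Atp5g3 was at a median of 2.52 times Atp5g1 and 3.04 times Atp5g2 per kilobase. The Atp5g1 and Atp5g2 counts, and so both ratios, are uncertain because a pseudogene matches Atp5g1 at 99.76% identity and another matches Atp5g2 at 100%. Across the members, 13 had a near-identical gene or pseudogene (at least 95% identity over at least 50% of the transcript), with Atp5l having 9, so their counts may be split or shared. Ndufs5, at 0, has a pseudogene copy at 99.37% identity.

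Median levels per kilobase were lowest in complex I and highest in complex V. In wild_type the median over genes was 219 CPM per kilobase for complex I, 237 for complex II, 447 for complex III, 455 for complex IV and 597 for complex V. The highest of each complex, as grouped by symbol, were Ndufa4 at 936 ± 255, Sdhb at 328 ± 75.8, Uqcrq at 886 ± 259, Cox4i1 at 1296 ± 285 and Atp5b at 1917 ± 158 CPM per kilobase (SD, n = 10). The lowest were Ndufa4l2 at 2.95 ± 0.55, Sdhc at 91.0 ± 13.8, Uqcrc2 at 241 ± 21.5, Cox8b at 14.7 ± 5.69 and Atp5l at 400 ± 103 CPM per kilobase (SD, n = 10). Without Ndufa4, now held to belong to complex IV, and its relative Ndufa4l2, complex I ran from Ndufb4 at 88.5 ± 22.6 to Ndufb8 at 519 ± 114 CPM per kilobase (SD, n = 10). The c-ring gene Atp5g3, at 1549 ± 296, and the stalk gene Atp5o, at 1407 ± 318, came next after Atp5b, and their spread overlapped with that of Cox4i1. The Atp5o count is uncertain, as a transcript of Donson matches it at 100% identity. These levels depend on the transcript chosen for the length, and were not corrected for the library pattern described next.

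Libraries of 1 genotype differed from each other by more than the genotype means did. Summed over the 81 genes, the level was 29902 ± 5656 CPM (SD, n = 10) in wild_type, 26789 ± 2529 in Isl1_het, 26552 ± 6137 in Nipbl_het and 24896 ± 5949 in double_het (SD, n = 9 each). It ran from 18639 CPM in the library labelled Nipbl_het replicate 2 to 39521 in double_het replicate 8, a 2.12-fold range within the 2 groups with Nipbl loss. Without that lowest library the range was 1.94-fold, from 20416 CPM in double_het replicate 1, and the Nipbl_het sum was 27541 ± 5743 CPM (SD, n = 8). The sums were 1.74% to 3.75% of all counts. The median coefficient of variation over the 37 libraries was 27.8% for the members, against 15.2% for the other genes with a mean of at least 50 CPM and 20.4% for all genes tested.

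**Figure D4:**
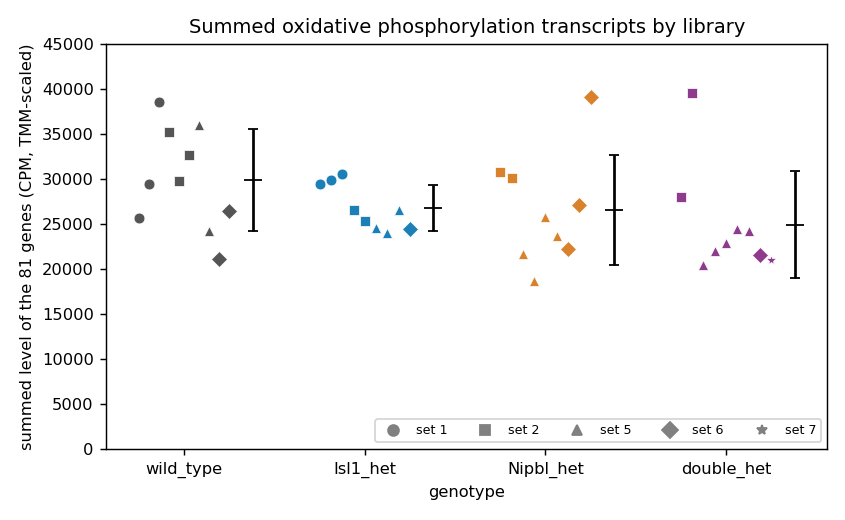
Summed level of the 81 genes in each of the 37 libraries (CPM, TMM-scaled), by genotype, with the symbol giving the set and black bars the mean and SD. The 4 genotypes overlap, with the lowest library at 18639 CPM in Nipbl_het and the highest at 39521 CPM in double_het.

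That variation between libraries moved with transcript length. The members have short transcripts, with a median of 704 nt (range 315 to 3171), against 2739 nt for the other genes tested that have a length. For each library, the deviation of each gene from its mean over libraries was set against transcript length. Over the 81 members the rank correlation across genes, a description since genes are not independent replicates, ran from -0.70 to 0.72 between libraries. Among 14686 genes outside the list it ran from -0.54 to 0.54, and it had the same sign as in the members in 30 of 37 libraries. The 10 libraries with the highest summed level of the members all had a negative slope on length among the other genes, where short transcripts were relatively high, and the 10 with the lowest sum all had a positive one. The 4 longest members were Sdhc at 3171 nt, Sdha at 2900 nt, Ndufs1 at 2590 nt and Atp5a1 at 2471 nt, with coefficients of variation of 17.0%, 7.57%, 15.9% and 7.42%. Of these Sdhc was low in the library labelled Nipbl_het replicate 2, at 123 CPM against a mean of 265 over all 37 libraries. With the slope of each library added to the fit, an alternative chosen after the pattern was seen, 5 members passed in Nipbl_het (6.17%), 8 in double_het (9.88%) and 12 for the averaged Nipbl effect (14.8%), and Cox8b was the single one of the 12 that was higher. That fit also called more of all genes, at 5.32%, 5.34% and 9.15% for the same comparisons, and whether the members' shares differ from these was not tested.

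**Figure D5:**
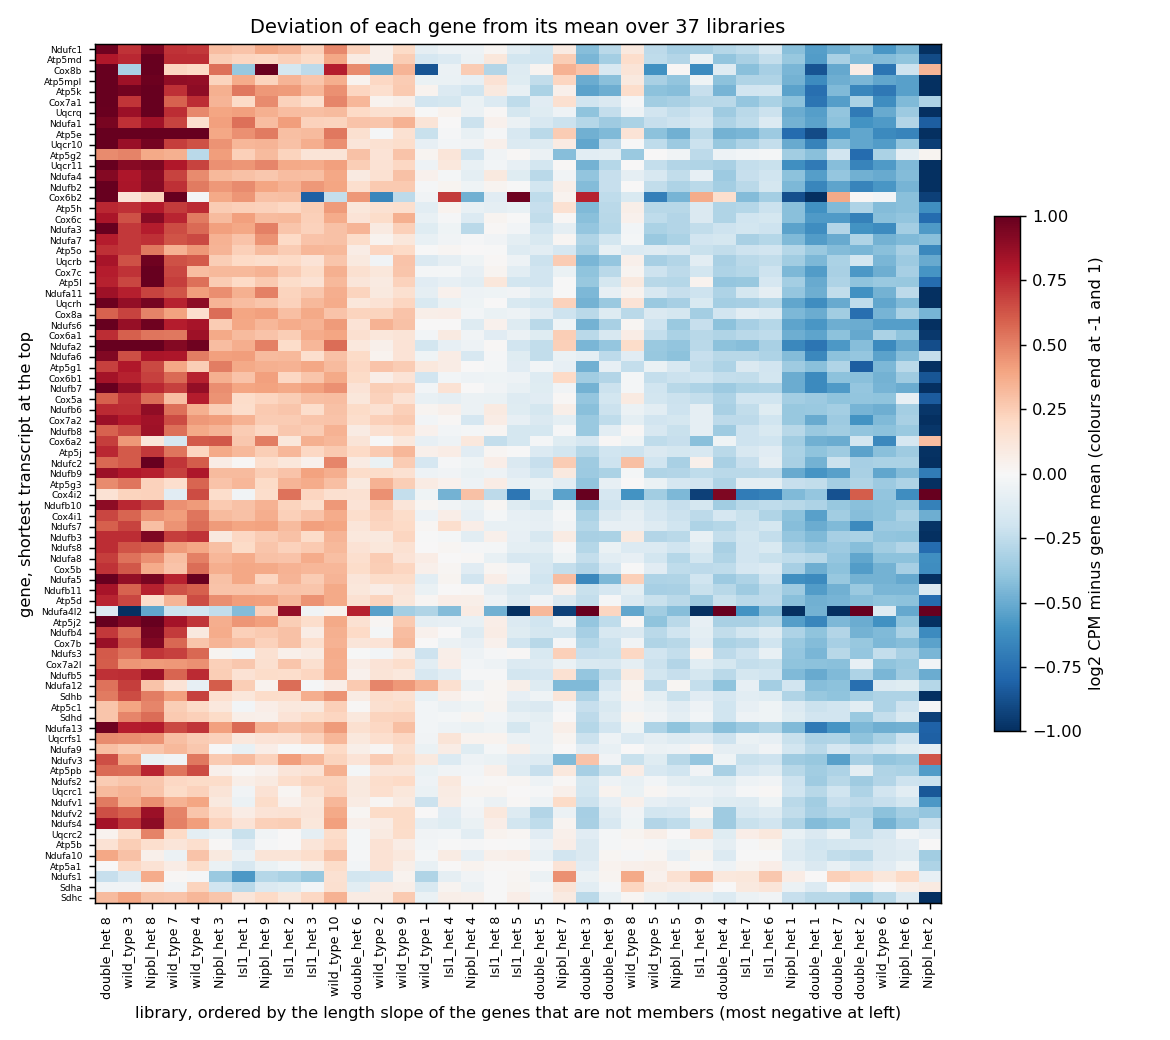
Deviation of each of the 81 genes (rows, shortest transcript at the top) from its mean log2 CPM over the 37 libraries (columns, ordered by the length slope of the genes outside the list). Short genes are red at the left and blue at the right while most of the longest genes at the bottom are paler, with Sdhc dark blue in the library labelled Nipbl_het replicate 2, and Ndufa4l2, Cox4i2, Cox8b and Cox6b2 depart from the common pattern.

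Set number also moved with the members. A set effect passed in 50 of 81 members (61.7%), against 38.2% of all genes (edgeR, adjusted p under 0.05). It passed in 23 of 36 genes of complex I, 1 of 4 of complex II, 4 of 8 of complex III, 14 of 16 of complex IV and 8 of 17 of complex V. Relative to set 1, Ndufs1 was higher by 0.26, 0.43, 0.67 and 0.64 on the log2 scale in sets 2, 5, 6 and 7. Atp5g2 stood at 0.016, -0.38, -0.44 and -1.04, and Ndufa12 at -0.14, -0.60, -0.57 and -1.10 in the same order. Set 1 held no library with Nipbl loss, so a comparison without the set term mixes set with genotype. Without it the median member difference of double_het from wild_type was -0.30 in place of -0.13.

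Genes that work beside the complexes gave the same count. The lists tested held 10 subunits, carriers and related genes that the symbol rule did not take, and 50 assembly and mitochondrial expression factors. They also held 23 regulators of mitochondrial gene expression and 18 genes of pyruvate dehydrogenase and the citric acid cycle. No gene of these lists passed in any of the 8 comparisons (edgeR, adjusted p under 0.05). In double_het against wild_type their median log2 differences were -0.10, -0.10, -0.07 and -0.09. At an unadjusted p under 0.05, 1, 3, 1 and 4 of their genes were lower there and 0 were higher, against 4.75% of all genes lower and 6.81% higher. The nearest to the threshold were Ndufaf6, an assembly factor of complex I, at -0.39 (SE 0.12, adjusted p = 0.0956) in double_het, and Lrpprc, which stabilises mitochondrial messenger RNA, at -0.21 (SE 0.07, adjusted p = 0.0981) in Nipbl_het (edgeR).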

How the data were processed

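Per the submitters' processing notes, STAR, featureCounts, GRCm38 and mm10 were used, with no versions. Strand setting, annotation and filters are not given in the sources used here. The authors deposited 1 table of raw counts, with a row per gene symbol and a column per library, and all 37 columns matched a label, with 0 other columns of values. The kits were NEB Monarch for total RNA and NEBNext Ultra II for libraries, per the labels' protocols.

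Genes were kept by filterByExpr with genotype as the group (at least 10 counts, and 15 in total), and TMM-scaled counts were fitted with edgeR 4.0.16 (limma 3.58.1, R 4.3.3) in 1 quasi-likelihood model of genotype and set number over all 37 libraries. Tests were two-sided, with Benjamini-Hochberg adjustment over all 15046 genes within each comparison and a threshold of 0.05. Standard errors and 95% intervals come from that fit. The set number is the digit after IVF in each description. Log2 CPM used a prior count of 2. The members and lists were chosen with earlier results of these data known. Named genes were the 3 members with the smallest p in each direction per comparison, the isoform families, complex II, the highest and lowest per kilobase and the 3 with the smallest set-effect p. Transcript lengths and near-identical copies (BLAST 2.17.0) come from GENCODE M21, in which all 81 members were found, some by a synonym, and promoters from RefSeq (GRCm38.p6). The model was tested on simulated counts.

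Alternatives were no set term, the replicate number as a block, DESeq2 1.42.0, RLE size factors, no filter, a filter of 10 counts in all libraries, surrogate variables (sva 3.50.0, 2 of them), each of sets 1, 2, 5 and 6 left out, each library left out and, added after seeing the data, the length slope of each library as a covariate. Other tools were Python 3.11.15, pandas 2.3.3, numpy 2.4.6 and matplotlib 3.10.9. No pair of libraries of a genotype was a duplicate (153 pairs, lowest chi-square over its degrees of freedom 7.46). Depth was 23.4 to 51.0 M counts per library.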

Additional observations from a re-analysis of the deposited data

Results flagged for a closer look

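In each genotype, the highest and lowest library of the summed level and of 32 named members was compared with the rest by the gap to its neighbour relative to the group's range. Of 132 groups checked, 31 had a library that stood apart, where chance gives about 1 in 20. The flags are not independent, since the members vary together. Double_het replicate 8 was the highest of its group for the summed level, at 39521 CPM against 28020 in the next library. It also stood apart by that gap as the highest of its group for 19 members, here with their CPM: Cox5a (557), Atp5pb (968), Ndufb5 (284), Cox8b (15.8), Ndufa10 (248), Atp5b (3828), Atp5c1 (563), Cox6a2 (182), Cox4i1 (1343), Cox6a1 (667), Cox6b1 (748), Cox7a1 (124), Cox7a2 (483), Cox7a2l (359.5), Atp5g3 (1333), Ndufa4 (669.9), Sdhb (454), Uqcrq (598) and Atp5l (316). Nipbl_het replicate 8 stood apart in the same way for Atp5pb (1109), Ndufb5 (308), Uqcrc2 (614), Atp5c1 (653), Cox7a1 (128) and Atp5l (381).

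The library labelled Nipbl_het replicate 2 had 3 flags. It was the highest for Ndufa4l2 at 83.8 CPM and for Cox4i2 at 73.1 CPM, and the lowest for Sdhc at 123 CPM against 222 in the next library. Isl1_het replicate 2 was the highest of its group for Ndufa4l2 at 6.45 CPM, and wild_type replicate 7 for Cox6b2 at 31.3 CPM.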

How the results depend on the processing

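The count of 0 members called held in all settings for Isl1_het against wild_type, double_het against Nipbl_het and the interaction. Elsewhere some settings called members. With 2 surrogate variables the counts were 5 in Nipbl_het, 3 in double_het, 2 in double_het against Isl1_het, 8 for the averaged Nipbl effect and 1 for the averaged Isl1 effect, which is 6.17%, 3.70%, 2.47%, 9.88% and 1.23% of the members against 9.32%, 11.5%, 5.01%, 14.2% and 1.46% of all genes in that fit. With the length slope as a covariate they were 5, 8, 1 and 12 in the first 4 of these, against 5.32%, 5.34%, 1.89% and 9.15% of all genes. DESeq2 called 1 in double_het and 2 for the averaged Nipbl effect, RLE size factors 1 in double_het, and the fit with no set term 1 (Ndufa4l2, a call not rerun without the library labelled Nipbl_het replicate 2, which moves that estimate from 1.28 to 0.84 in the model with set) for the averaged Nipbl effect, where all genes called were 3.5%, 5.46%, 2.44% and 6.95%. With each library left out in turn, the count ranged from 0 to 2 in double_het against wild_type and from 0 to 1 for the averaged Nipbl effect, and was 0 in the others. The double_het against Isl1_het median was 0.23 without set 5. With each library left out, the median member difference ranged from -0.21 to -0.050 in Isl1_het, -0.16 to 0.065 in Nipbl_het and -0.25 to 0.00084 in double_het against wild_type, from -0.093 to 0.068 in double_het against Isl1_het and -0.19 to 0.018 against Nipbl_het, from -0.021 to 0.17 for the interaction, and from -0.088 to 0.061 and -0.18 to -0.054 for the averaged Nipbl and Isl1 effects.

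The replicate numbers of the titles do not pair the libraries: of 54 same-numbered pairs, 17 correlated above 0.1 (median 0.028, range -0.45 to 0.55). The replicate block in place of the set number called 1 member (Cox8b) for the averaged Nipbl effect (6.6% of all genes) and changed no other count. Under the block Ndufs1 stood at 0.064 in Nipbl_het, 0.078 in double_het against Isl1_het and 0.021 in double_het against wild_type, Atp5g2 at -0.0086 in Isl1_het and Uqcrc1 at -0.014 in double_het against Nipbl_het.

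The other sign changes were in estimates that had not passed. Ndufs1 stood at 0.054 in Nipbl_het and 0.055 in double_het against Isl1_het with no set term. Atp5g2 in Isl1_het stood at -0.026 with no set term, -0.0047 with DESeq2 and with RLE size factors, -0.065 without set 5 and -0.019 without set 6. In double_het against Nipbl_het, Ndufa10 stood at -0.021 without set 2, and Uqcrc1 at -0.023 with no set term, -0.00014 with at least 10 counts in every library, -0.0096 with 2 surrogate variables, and -0.0011, -0.031 and -0.083 without sets 1, 2 and 5. With each library left out, Atp5g2 ranged from -0.032 to 0.048, Ndufa10 from -0.043 to 0.041 and Uqcrc1 from -0.095 to 0.044. Except where an alternative drops samples or genes, the cause was not tested. PCR copies were not marked by molecular identifiers, and depth limits Ndufa4l2 and Cox8b most.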

Other observations

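Genes known to respond to low oxygen, chosen after the values of Ndufa4l2 and Cox4i2 were seen, had the following levels in the 3 libraries that stood apart for those members. Vegfa, which drives vessel growth, was at 1310 CPM in the library labelled Nipbl_het replicate 2, 224 in double_het replicate 3 and 125 in double_het replicate 4, against 55.9 to 119.7 in the other 34 libraries. Slc2a1, a glucose transporter, was at 3970, 1704 and 1264 CPM against 610 to 1168. Pdk1, which restrains entry of pyruvate into the citric acid cycle, was at 714, 463 and 319 CPM against 144 to 266. Bnip3, a mitochondrial outer membrane protein of mitophagy, was at 1578, 557 and 323 CPM against 130 to 286. Egln3, an oxygen-sensing hydroxylase, was at 361, 44.0 and 19.7 CPM against 7.92 to 16.0. Car9, a carbonic anhydrase, was at 61.4, 8.66 and 3.53 CPM against 0.67 to 1.80. All 3 libraries lay above the other 34 in these 6 genes. For Ldha, the muscle form of lactate dehydrogenase, the values were 5095, 4199 and 3333 CPM against 2086 to 3813, and for Ankrd37 120, 11.8 and 5.11 against 4.76 to 12.4, so for these 2 genes the groups of libraries overlapped. These are levels in libraries picked by the data and not a comparison of genotypes, and what sets the 3 libraries apart was not tested.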
